A study of Homo sapiens with 5 samples.

Results

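The genes described here encode the machinery of RNA polymerase I (Pol I) and RNA polymerase III (Pol III), taken as a list of 39 named genes out of 20033 protein-coding genes. The list holds 5 subunits particular to Pol I, 10 particular to Pol III, 2 shared by Pol I and Pol III, 5 shared by Pol I, Pol II and Pol III, 6 Pol I initiation factors, TFIIIA, 6 subunits of TFIIIC, 3 subunits of TFIIIB and the Pol III repressor MAF1. Each gene was examined for MYC and HSF1 peaks within 1 kb of any of its annotated transcription start sites on GRCh38.

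The cells were OVCAR8, an established human ovarian carcinoma line in which, by the study's account, the MYC and HSF1 genes are both amplified. They were proliferating and untreated in all libraries. CUT&RUN, in which an antibody guides a nuclease to cut out the DNA around a bound protein, was run on 500000 cells per reaction after 1 minute in 1% formaldehyde, with 2 libraries for MYC, 2 for HSF1 and 1 for control IgG. No source says whether libraries of a factor came from separate cultures, and all 4 peak lists share the IgG control, so the spread between lists of a factor may be technical. The lists hold 25623 and 13278 MYC peaks and 6421 and 4459 HSF1 peaks on the main chromosomes, from 8265647 to 10084407 fragments kept per library.

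Pol I transcribes the large ribosomal RNA precursor, and Pol III transcribes transfer RNAs, 5S ribosomal RNA, U6 and other small RNAs. The enzymes share several subunits with each other and with Pol II, while each is brought to its templates by its own factors: UBTF, RRN3 and the TAF1 subunits of the selectivity factor for Pol I, and TFIIIA, TFIIIC and TFIIIB for Pol III. MYC is a transcription factor that binds the E-box CACGTG with its partner MAX and is known for driving ribosome production. HSF1 is the heat shock transcription factor, which binds repeated GAA units in alternating orientation.

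The sequences below are the CACGTG hexamers in the RefSeq promoters of the members, which run from 250 bases before to 50 after the start on GRCh38.p14, and they are shown because all of them belong to Pol III genes that had a MYC peak in both lists. A promoter was found for 32 of the 39 members. The hexamer, searched as CACGTG, which reads the same on both strands, occurred in 6 of these 32 promoters (18.8%), against 8.89% of 15345 protein-coding promoters. By class, it occurred in 6 of 16 promoters of Pol III genes, 0 of 10 of Pol I genes and 0 of 6 of shared subunits. Among genes with a MYC peak in both lists, it occurred in 6 of 24 member promoters (25.0%), against 12.6% of 6480. Each line gives 30 bases, 5′ to 3′ on the strand of the gene, with the hexamer in capitals.
POLR3A, chr10:78029533-78029562 (minus), hexamer from base -35: agaggaagcggaCACGTGggacactctacg
POLR3C, chr1:145823992-145824021 (plus), hexamer from base -196: gcccgcgtcggtCACGTGagttggccaggc
POLR3E, chr16:22297396-22297425 (plus), hexamer from base -1: cccgctccccccCACGTGtccgccggagtt
GTF3C2, chr2:27356850-27356879 (minus), hexamer from base -103: ccggaccaagcaCACGTGtttaccttgtgc
GTF3C4, chr9:132669988-132670017 (plus), hexamer from base -35: ggcccgggacccCACGTGggacgcgcgagg
GTF3C6, chr6:110958552-110958581 (plus), hexamer from base -142: gtggcgagtctcCACGTGggtaccggcgct

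Of the 6 hexamers, all lay inside the MYC peak of replicate 1. In replicate 2, those of GTF3C2, GTF3C4, GTF3C6 and POLR3E lay inside the peak, and those of POLR3A and POLR3C lay outside it. The hexamer of POLR3E was the closest to the MYC summit, at 59 bp in replicate 1 and 88 bp in replicate 2. The hexamer of POLR3C was the farthest, at 306 and 301 bp. A match is a description of the letters and not a measured binding site.

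MYC peaks lay at most of the members. A MYC peak was listed for 35 of 39 members (89.7%) in replicate 1, where 55.3% of all protein-coding genes had one. In replicate 2 a peak was listed for 29 members (74.4%), against 41.2% of all genes. All 29 were also among the 35, so that 29 members (74.4%) had a MYC peak in both lists, against 40.1% of all genes, and 35 (89.7%) had one in either list, against 56.4%. The 6 members listed in replicate 1 alone (15.4%, against 15.3% of all genes) were BRF2, GTF3C3, GTF3C5, POLR2F, POLR3GL and RRN3. No list held a MYC peak at POLR2E, POLR2K, TAF1A or TAF1C. High MYC shares were not particular to the members. Of genes of like function, 5 of 7 other Pol II subunits had a MYC peak in both lists. So did 10 of 14 general factors of Pol II and 12 of 14 further genes of Pol I and Pol III. Of 16 genes for RNAs made by Pol III, 6 did. A gene outside a list has no value there, and the shares are descriptions with no test.

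**Figure D1:**
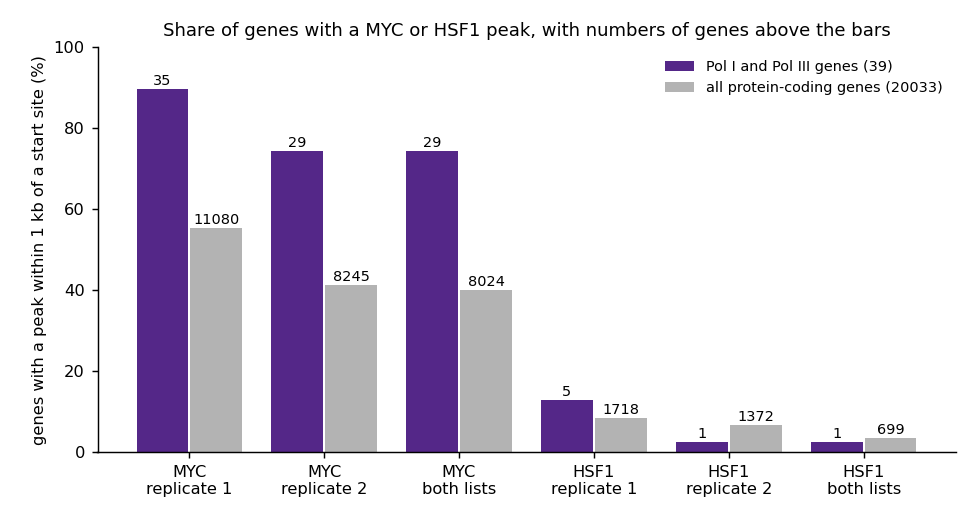
Share of genes, in percent, with a peak within 1 kb of a start site, for the 39 Pol I and Pol III genes (purple) and all 20033 protein-coding genes (grey), in each peak list and in both lists of a factor, with gene numbers above the bars. The MYC shares of the Pol I and Pol III genes stand above those of all genes in both replicates (89.7% against 55.3%, and 74.4% against 41.2%), while the HSF1 shares lie on either side of those of all genes.

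HSF1 peaks were few at these genes. HSF1 replicate 1 listed a peak at 5 members (12.8%), against 8.58% of all genes, and replicate 2 at 1 member (2.56%), against 6.85%. Either list held a peak at 5 members (12.8%), against 11.9% of all genes, and both lists at GTF3C3 alone (2.56%), against 3.49%. The HSF1 shares thus lay near those of all genes. No member had peaks of both factors in both lists of each, against 3.05% of all genes.

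The strength of a peak is given below as fold enrichment, the ratio of the pileup of fragments at the summit to the local IgG background, for the strongest peak at the gene. Among listed members the median MYC fold enrichment was 16.7 in replicate 1 (range 9.69 to 42.9, 35 members), and 14.6 over the 11080 genes listed there. In replicate 2 it was 15.1 (range 6.82 to 58.8, 29 members), and 11.7 over 8245 genes. The listed members above the median of all listed genes numbered 24 of 35 and 20 of 29. The pileups behind these values were 17 to 94 fragments in replicate 1 and 16 to 100 in replicate 2, so the weakest peaks rest on few fragments.

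Pol III genes carried the strongest peaks of the list. The 17 Pol III genes with a MYC peak in both lists (of 21) had a median mean fold enrichment of 18.7, against 14.2 for 8 of 11 Pol I genes and 13.4 for 4 of 7 shared subunits. A mean of at least 20 was reached by 8 Pol III genes, 1 Pol I gene and 0 shared subunits. Among the 8, the strongest summits of POLR3K and GTF3C4 lay nearer to the start of a neighbour, SNRNP25 and DDX31. Over the 29 members the median was 15.7, and over the 8024 genes with a MYC peak in both lists it was 14.4. These medians were set side by side without a test.

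**Figure D2:**
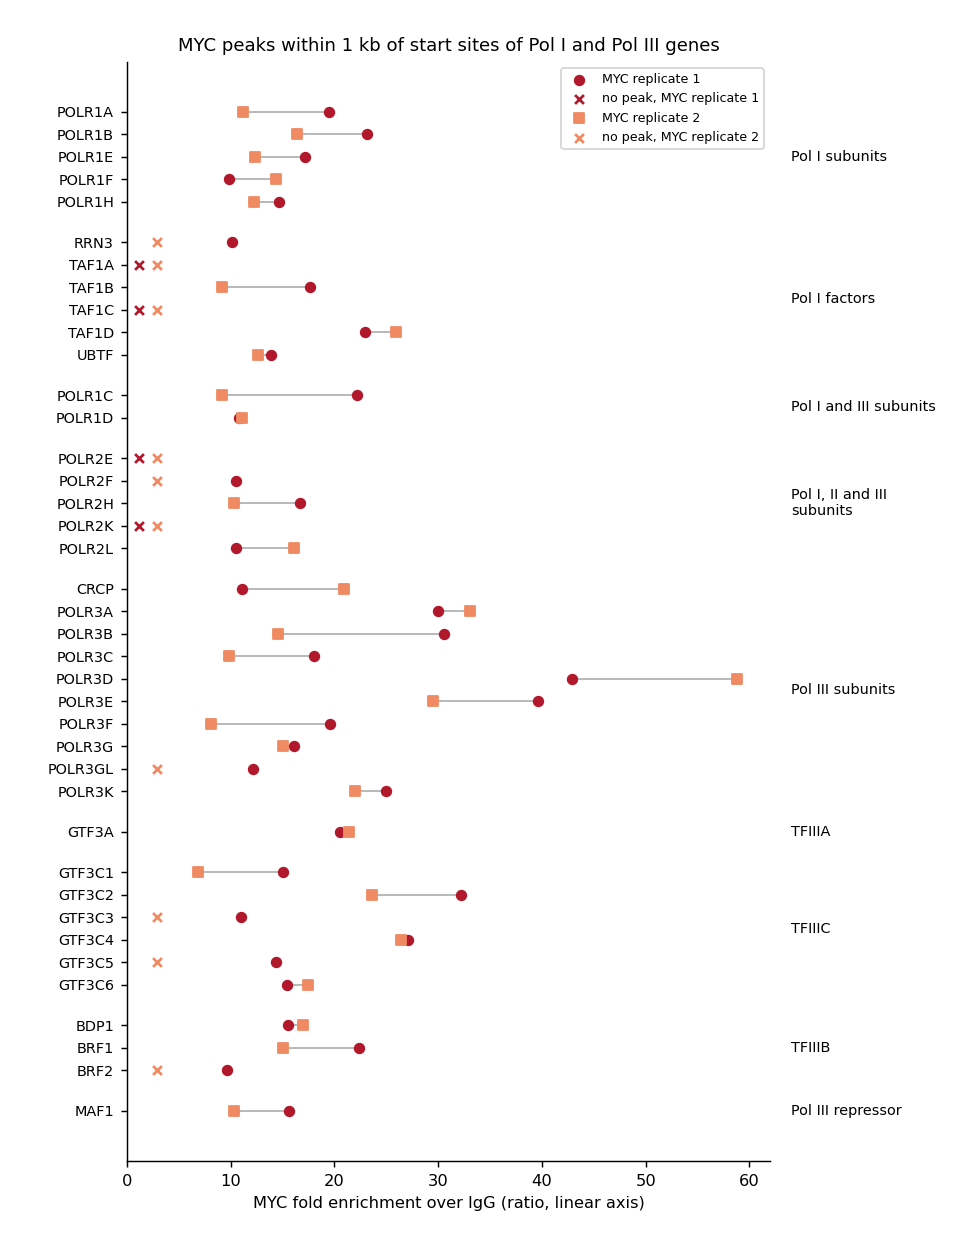
MYC fold enrichment over IgG (linear axis) of the strongest peak within 1 kb of a start site of each of the 39 genes, by role, with circles for replicate 1, squares for replicate 2 and a grey line joining them. Crosses at the left edge mark a gene with no peak in that list and carry no value. POLR3D stands farthest to the right in both lists, at 42.9 and 58.8, and 4 genes have crosses for both lists.

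Among the subunits particular to Pol III, all 10 had a MYC peak in replicate 1 and 9 had one in both lists. POLR3D, a subunit of the heterodimer that works in initiation and termination, had a fold enrichment of 42.9 in replicate 1 and 58.8 in replicate 2, with pileups of 66 and 100 fragments. POLR3E, its partner in that heterodimer, had 39.6 and 29.5. POLR3A, the largest subunit, had 30.0 and 33.1. The means were 50.9 ± 11.2, 34.6 ± 7.16 and 31.5 ± 2.15 (SD, n = 2 lists). The values of POLR3D lay above those of POLR3E in both lists, whereas the values of POLR3E and POLR3A overlapped.

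POLR3K, a small subunit with a role in termination, followed with 25.0 and 22.0. POLR3B, which forms the active site together with POLR3A, had 30.6 in replicate 1 and 14.6 in replicate 2, a mean of 22.6 ± 11.3 (SD, n = 2 lists). Its place in the order therefore depends on the list used, and its values spanned those of POLR3K. POLR3C and POLR3F belong to the trimer that meets TFIIIB, and they had 18.0 and 9.89, and 19.6 and 8.16. CRCP, part of the stalk, had the opposite order, with 11.1 and 20.9.

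POLR3G and POLR3GL are alternative subunits that fill the same place in that trimer. POLR3G had a MYC peak in both lists, with a fold enrichment of 16.1 and 15.1 on pileups of 51 and 50 fragments. POLR3GL had one in replicate 1 alone, with 12.2 on 18 fragments, and the nearest MYC peak of replicate 2 lay 6655 bp away. The paralogs thus differed in whether replicate 2 listed a peak, and the difference was not tested. The strongest peak lay nearer to the start of a neighbour in both cases, MBLAC2 for POLR3G and ANKRD34A for POLR3GL.

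The peak at POLR3E in replicate 1 also covered a template of Pol III. The transfer RNA gene TRL-AAG2-4 lies at chr16:22297140-22297221, upstream of POLR3E on GRCh38. The replicate 1 peak ran from chr16:22297017-22298024 and included it, and the replicate 2 peak ran from chr16:22297231-22297972 and did not. Both summits lay past the nearest annotated start of POLR3E, at 15 and 44 bp. POLR3E was the 1 member of 29 (3.45%) with a transfer RNA gene under its strongest MYC peak of either list, against 27 of 8024 genes (0.336%). This count was made after the neighbouring gene had been noticed. The 235 bases from the start of the transfer RNA gene to the base before POLR3E, which hold no annotated exon, are printed on the plus strand with the transfer RNA gene in capitals, to show how close the template and the gene of the enzyme lie.
TRL-AAG2-4 to POLR3E, chr16:22297140-22297374 (plus): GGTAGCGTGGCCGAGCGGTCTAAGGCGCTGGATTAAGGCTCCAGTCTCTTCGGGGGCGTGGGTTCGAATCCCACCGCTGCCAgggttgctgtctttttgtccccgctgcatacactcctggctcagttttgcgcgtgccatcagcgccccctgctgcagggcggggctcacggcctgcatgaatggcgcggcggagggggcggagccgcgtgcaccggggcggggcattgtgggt

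TFIIIC recognises the internal promoter of transfer RNA genes, and its 6 subunits divided by list. GTF3C2 had a MYC fold enrichment of 32.2 and 23.6, GTF3C4 had 27.1 and 26.4, and GTF3C6 had 15.4 and 17.5. GTF3C3 and GTF3C5 had a peak in replicate 1 alone, with 11.0 and 14.4. Within TFIIIC the replicate spread was smallest for GTF3C4, with a mean of 26.7 ± 0.466 (SD, n = 2 lists), and its values overlapped those of GTF3C2.

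GTF3C1, the largest subunit of TFIIIC, had 15.1 and 6.82. Both strongest peaks lay at the same place, with the summit at base 27461740 of chromosome 16 in each list, near a start site annotated close to the 3′ end of the gene. The canonical start of GTF3C1, at base 27549913, had a MYC peak in replicate 1 alone, with a fold enrichment of 10.6, so its call in both lists rests on the other start site.

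TFIIIA, encoded by GTF3A, binds the 5S gene and had 20.5 and 21.4, a mean of 21.0 ± 0.663 (SD, n = 2 lists). Within 100 bp of its strongest summit, that of replicate 2, lay 2 E-boxes, whereas the summit of replicate 1 had no such match. Both E-boxes lay past the end of the RefSeq promoter window and so outside the promoter count above. They are shown because GTF3A was the member with 2 such hexamers near a summit, with each CACGTG in capitals.
GTF3A, chr13:27424682-27424711 (plus): CACGTGtctcggCACGTGgcagcgcgcctg

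TFIIIB places Pol III at the start site. BRF1, which serves transfer RNA and 5S genes, had a MYC fold enrichment of 22.4 and 15.1. BDP1, which is common to all forms of TFIIIB, had 15.5 and 17.0. BRF2, which replaces BRF1 at U6-type promoters, had 9.69 in replicate 1, the lowest value of any member in that list, and no peak in replicate 2. BRF1 and BRF2 thus differed in the number of lists. MAF1, which represses Pol III when nutrients are short, had 15.6 and 10.3, and its peaks were shared with the neighbour SHARPIN.

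All 5 listed subunits particular to Pol I had a MYC peak in both lists. The list does not hold POLR1G, a further Pol I subunit with higher values, 39.9 and 26.4. POLR1B, which forms the active site with POLR1A, had 23.1 and 16.4. POLR1A, the largest subunit, had 19.5 and 11.2. POLR1E, part of the heterodimer that resembles a general factor of Pol II, had 17.2 and 12.4. POLR1H, which has a role in RNA cleavage, had 14.7 and 12.3, and POLR1F, part of the stalk, had 9.86 and 14.4. Their means ran from 12.1 to 19.8 with a median of 14.8, and the values of neighbours in this order overlapped between lists.

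The Pol I factors fell into those with peaks in both lists and those with few or none. TAF1D, a subunit of the selectivity factor, had 23.0 and 25.9, the highest mean among the 11 listed members particular to Pol I, 24.4 ± 2.06 (SD, n = 2 lists). TAF1B, the subunit related to TFIIB, had 17.7 and 9.17. UBTF, which coats active ribosomal RNA genes, had 13.9 and 12.6, with 5 peaks within 1 kb of its 16 start sites in each list. The strongest of these differed between lists, with summits 2126 bp apart.

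RRN3, which links Pol I to the selectivity factor, had a MYC peak in replicate 1 alone, with 10.1 on 22 fragments. RRN3 has near-identical pseudogene copies, so reads there may be placed uncertainly. TAF1A and TAF1C, the other subunits of the selectivity factor listed, had no peak in either list. Their nearest MYC peaks lay 27721 and 104603 bp away for TAF1A, and 41346 and 63834 bp away for TAF1C.

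Of the 7 subunits shared between enzymes, 4 had a MYC peak in both lists, beside the 40.1% of all genes. POLR1C and POLR1D, the pair shared by Pol I and Pol III, had peaks in both lists, with 22.2 and 9.14 for POLR1C and 10.8 and 11.1 for POLR1D. Of those shared by Pol I, Pol II and Pol III, POLR2H had 16.7 and 10.3, POLR2L had 10.5 and 16.1, and POLR2F had 10.5 in replicate 1 alone. POLR2E and POLR2K had no peak in either list. The nearest MYC peaks lay 6475 and 6688 bp from the start sites of POLR2E, and 4668 and 4821 bp from those of POLR2K.

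The lists of a factor were not equally strong. Among the 29 members with a MYC peak in both, 19 (65.5%) were higher in replicate 1, as were 81.1% of the 8024 genes. The ratio of replicate 1 to replicate 2 had a median of 1.19 and ran from 0.531 at CRCP to 2.43 at POLR1C, and the median over all genes was 1.36. Across these 29 genes, which share libraries and control, the log2 fold enrichments of the replicates had a Pearson correlation of 0.58 and a Spearman correlation of 0.49, given as a description. POLR1C, POLR3F, GTF3C1 and POLR3B differed by more than 2-fold between lists.

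MYC summits lay close to the start sites. The summit of the strongest peak was within 250 bp of the nearest start site in 28 of 35 members (80.0%) in replicate 1, against 75.0% of all listed genes. In replicate 2 it was within 250 bp in 22 of 29 (75.9%), against 70.8%. The median distance was 92 and 117 bp. The nearest start was taken among all annotated starts of a gene. Members had a median of 8 of these, against 5 over all genes, which can shorten their distances. Summits of the replicates lay a median of 41 bp apart, and 21 of 29 pairs lay within 200 bp.

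**Figure D3:**
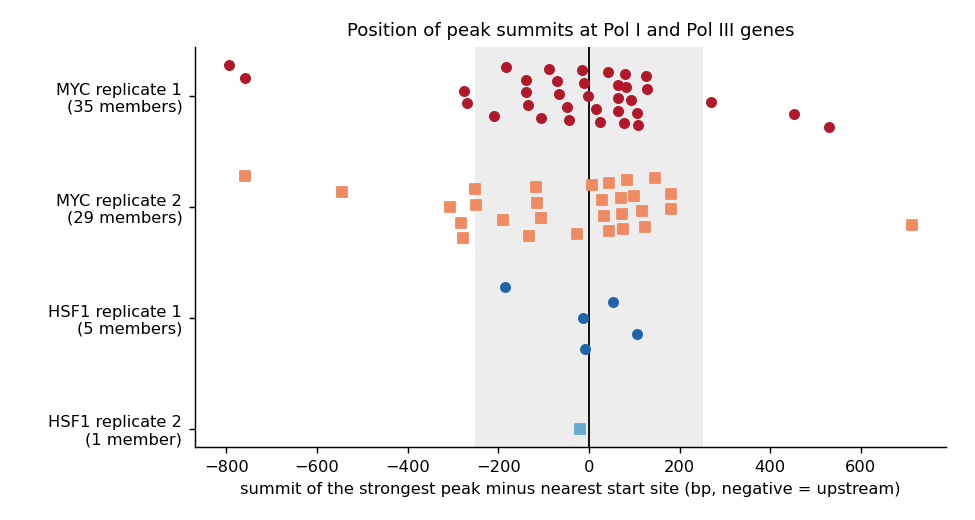
Distance in bp from the nearest start site to the summit of the strongest peak of each listed member, with negative values upstream and the band of 250 bp either side shaded. In MYC replicate 1, 28 of 35 summits lie in the band, and in MYC replicate 2, 22 of 29. The few HSF1 summits, 5 in replicate 1 and 1 in replicate 2, all lie in it, against 66.1% and 59.1% of all listed genes. Any annotated start counts, and the HSF1 summit of POLR3F lies 458 bp from its canonical start.

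Several of these promoters are shared, so a peak cannot be assigned to 1 gene. Of the 29 members, 13 (44.8%) had the start of another protein-coding gene within 1 kb of the strongest MYC peak, against 31.8% of the 8024 genes. In pairs such as POLR1A with PTCD3, POLR1C with YIPF3, POLR2H with CLCN2 and BRF1 with PACS2, the member held the start nearest to the summit. The start nearest to the summit belonged to another gene in 5 members, for example DZANK1 at POLR3F, SNRNP25 at POLR3K and DDX31 at GTF3C4. The members also had more annotated start sites, with a median of 8 against 5 over all genes, which gives a peak more chances to be counted. With the canonical start site alone, 28 members (71.8%) had a MYC peak in both lists, against 36.5% of all genes.

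Around the strongest MYC summit, CACGTG within 100 bp was found at 5 of the 29 members (17.2%, 95% Wilson interval 7.6 to 34.5), against 8.09% of the 8024 genes. The 5 were POLR3D, POLR3E, GTF3A, GTF3C1 and GTF3C2, all of them Pol III genes, which make up 17 of the 29. Only POLR3E and GTF3C1 had a match near the summit in both lists. POLR3D and GTF3A had it in replicate 2 alone, and GTF3C2 in replicate 1 alone. The match at GTF3C1 lay by the start site close to the 3′ end of the gene. With CACGCG, on either strand, counted as well, 12 of 29 (41.4%) held a match, against 21.6%. The interval covers counting error only, and the shares were not tested against each other.

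HSF1 was listed at 5 members, all of them Pol III genes, which make up 21 of the 39 members. At each of the 5, the HSF1 peak of replicate 1 overlapped the MYC peak of replicate 1 by at least 1 bp. Such overlap was usual wherever HSF1 was listed, at 1541 of the 1718 genes with a peak in HSF1 replicate 1. Overlap of these lists was found at 5 of 39 members (12.8%), against 7.69% of all genes. In the other pairs of lists the share of members was below that of all genes. HSF1 replicate 1 and MYC replicate 2 overlapped at POLR3B and POLR3F (5.13%, against 6.08%), HSF1 replicate 2 and MYC replicate 1 at GTF3C3 (2.56%, against 5.87%), and HSF1 replicate 2 and MYC replicate 2 at 0 members, against 5.06%.

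GTF3C3, a subunit of TFIIIC, was the member with HSF1 in both lists, with a fold enrichment of 6.43 in replicate 1 and 14.2 in replicate 2, a mean of 10.3 ± 5.47 (SD, n = 2 lists). The pileups were 11 and 23 fragments. The summit of replicate 1 lay 32 bp upstream of the canonical start site and that of replicate 2 lay 149 bp downstream, 181 bp apart. The peaks ran from chr2:196799497-196799793 and chr2:196799287-196799694. Its MYC peak, in replicate 1 alone, had 11.0 on 18 fragments at chr2:196799464-196799747. The summits of MYC replicate 1 and HSF1 replicate 2 were 24 bp apart.

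The remaining HSF1 peaks stood in replicate 1 alone. POLR3F and POLR3GL had an HSF1 fold enrichment of 5.32 each, on 8 fragments each. BRF2 had 4.07 on 8 fragments, and POLR3B had 3.35 on 15 fragments. The median over the 1718 genes listed in HSF1 replicate 1 was 5.0, with a median pileup of 11 fragments, so POLR3F and POLR3GL lay just above that median and BRF2 and POLR3B below it. At POLR3B the MYC values were 30.6 and 14.6 at the same promoter. The HSF1 summit there lay 106 bp downstream of the canonical start site, and the MYC summits of replicates 1 and 2 lay 462 and 116 bp downstream, so the HSF1 summit was 356 and 10 bp from those of MYC.

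**Figure D4:**
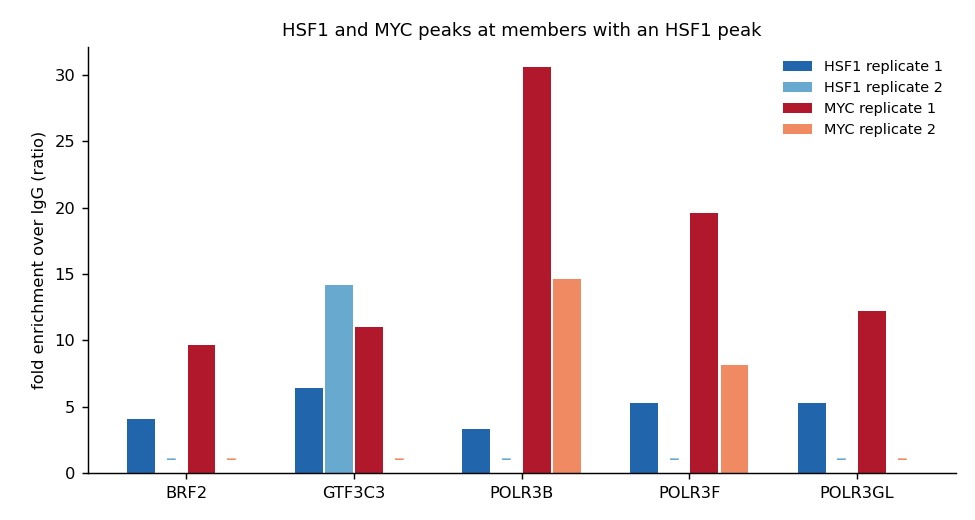
Fold enrichment over IgG (axis from 0) in each of the 4 lists at the 5 members with an HSF1 peak, with HSF1 in blue and MYC in red, and a dash where a list holds no peak. GTF3C3 alone has both blue bars, at 6.43 and 14.2, and POLR3B has the tallest MYC bar, at 30.6.

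The heat shock element, searched on both strands as GAANNTTCNNGAA or TTCNNGAANNTTC, was found within 100 bp of the HSF1 summit at 0 of the 5 members, against 2.76% of the 2391 genes listed in either HSF1 list. A shorter form with 2 units, GAANNTTC or TTCNNGAA, occurred once at GTF3C3, 38 bp from the summit of replicate 1, and not within 100 bp of the stronger summit of replicate 2. Of the 2391 genes, 16.1% held such a match at their strongest HSF1 summit. It is printed on the strand of the gene with the units in capitals, because GTF3C3 was the member with HSF1 in both lists.
GTF3C3, chr2:196799662-196799691 (minus): ggcgaggtagcTTCTGGAAggcgctgctct

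Related lists set the members beside genes of like function. Of 7 other Pol II subunits, 5 had a MYC peak in both lists, with a median mean fold enrichment of 11.9, and of 14 general factors of Pol II, 10 did, with 12.1. Of 14 further genes of Pol I and Pol III, 12 did, with 12.3. Of 16 genes for RNAs made by Pol III, 6 did, with 15.2. POLR1G had the highest mean of all these genes, from a strongest peak whose summit lay nearer to the start of PPP1R13L. POLR2I, a Pol II subunit, followed with 36.9 and 29.0, and it also had HSF1 in both lists, with RNU6-2 and RNY3 the other genes of these lists to do so. RNU6-2, a U6 gene made by Pol III, had HSF1 values of 8.43 and 6.80 and MYC values of 18.3 and 10.5. RNY3, a Y RNA gene, had HSF1 values of 3.82 and 4.95 and no MYC peak. The membership of these lists was a choice, and the differences between their medians were not tested.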

How the data were processed

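The authors aligned paired reads to GRCh38 with Bowtie 2 and called peaks per library, not pooled, with MACS 2.2.9.1 against the IgG library, at p 1e-04 for HSF1 and 1e-10 for MYC. One copy of each duplicate fragment was kept and the larger library was scaled to the smaller. The headers name the control IgG_Rep2, while the labels list 1 IgG control. For each peak, the deposited files give a pileup signal, a fold enrichment ratio over IgG and a -log10 p-value, all used here, and hold no read counts. A stricter p set for MYC than for HSF1 lowers MYC counts, so counts and fold enrichments of the factors are not compared in size.

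Peaks were assigned to every GENCODE 44 gene with a start site within 1 kb of the peak (Python 3.11.15 scripts with pandas 2.3.3 and pysam 0.24.0), and the strongest peak was taken per gene and list. Assignment was tested on simulated peaks. No test was made, since the lists hold called peaks, with no value for a gene without a peak. Members and lists were chosen with earlier results of these data known. Named in full are members with an HSF1 peak, the 3 highest by MYC in each role group, those in fewer than 2 MYC lists, and POLR3G and POLR3GL, and in the related lists the genes with HSF1 in both lists and the 2 with the highest MYC means. Alternatives changed the window, start sites, thresholds, replicates and motif.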

Additional observations from a re-analysis of the deposited data

How the results depend on the processing

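The number of members with a MYC peak in both lists, 29, lay between 23 and 35 across the alternatives. Leaving out a MYC replicate gave 29 to 35, the 2 kb window gave 29, the 500 bp window, the canonical start site and coding transcripts each gave 28 without GTF3C1, a MYC threshold of 1e-20 gave 25 (28.3% of all genes), and the nearest start site alone gave 23 (29.4%), without CRCP, GTF3C4, MAF1, POLR3F, POLR3G and POLR3K. The median MYC fold enrichment stayed between 15.1 and 16.7. HSF1 calls depended on the lists. The count with HSF1 in both lists, 1, was 1 to 5 when an HSF1 replicate was left out (5 from replicate 1 alone), 5 for the union of the lists and 0 with HSF1 at 1e-10. The count with both factors in both lists, 0, was 0 to 2 when a replicate was left out and 5 for the union, and the count with overlapping peaks, 0, was likewise 0 to 2 and 5. The share of MYC sites with an E-box, 17.2%, became 41.4% with CACGTG or CACGCG and 27.6% within 200 bp of the summit, and was 11.4% without MYC replicate 2 and 13.8% without MYC replicate 1. For values of single genes, leaving out a list was set aside, as it cannot pass the spread between 2 lists. A threshold on the other factor was set aside too. Under the remaining alternatives, 223 values moved by no more than that spread and 3 by more. Those that moved more went to 19.2 for POLR2L (2 kb window) and to 10.8 and 11.4 for UBTF (canonical and nearest start site). The counts include a floor of 5 on fold enrichment, which can remove a gene but cannot change its strongest peak. A gene removed by an alternative, such as GTF3C1 at 500 bp, has no value there and is left out of the counts. No paired analysis was possible because the results come from no test. The lists give no depth per site beyond the pileup, so an unlisted gene is one that did not pass the threshold at 8265647 to 10084407 fragments, not one shown to lack binding.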

Other observations

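The templates of Pol I and Pol III were examined after the data were seen, taking RefSeq genes with a peak within 100 bp. Of 443 nuclear transfer RNA genes, 156 (35.2%) had a MYC peak in replicate 1, 47 (10.6%) in replicate 2 and 46 (10.4%) in both lists. HSF1 peaks lay at 23 (5.19%) in replicate 1, 7 (1.58%) in replicate 2 and 4 (0.903%) in both. The MYC peaks were 128 and 42 distinct peaks, since neighbouring transfer RNA genes can share one, and their median fold enrichment per gene was 12.7 and 9.73. No share over other genes was counted within 100 bp, so the shares of transfer RNA genes stand without a background. Within the wider 1 kb, MYC was listed at 55.3% and 41.2% of protein-coding genes, and HSF1 at 8.58% and 6.85%. Of 17 5S ribosomal RNA genes, 0 had a MYC peak in replicate 1 and 1 had one in replicate 2, with a fold enrichment of 5.3. Of 3 copies of the 45S gene on chromosome 21, 1 had a MYC peak in replicate 1, with 5.67, and 0 in replicate 2. These genes occur in near-identical copies, so reads may be lost or placed on the wrong copy, and a missing peak there says little. How the mapping treated such copies was not given in the sources used here.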
